A study of Mus musculus with 8 samples.

Results

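The genes described here are 42 interferon-inducible and MHC class I genes, taken as the rows of the deposited count table whose gene identifiers carry these symbols. All 42 were among the 18395 genes of the table and all 42 passed the filter on low counts. They were sorted by role into 5 regulators of transcription, 7 targets of type I interferon, 7 further interferon-stimulated genes, 12 targets of interferon-gamma, the pair Cxcl10 and Cd274, 6 genes that supply peptide to MHC class I, and 3 MHC class I chains. Poly(A) RNA of mouse adipose tissue was sequenced, with 4 libraries of the control genotype (WT) and 4 of a genotype in which brown adipocytes lose Kindlin-2 (KO), and all mice of both groups spent 6 hours at 4 °C. Kindlin-2, encoded by Fermt2, is an adaptor that binds integrins at cell adhesions. The labels name neither the fat depot nor the driver of the deletion, and they do not say whether the 4 replicates of a group are 4 animals, so the p-values below measure only the spread between these libraries. All groups used here were exposed to cold.

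Type I interferons and interferon-gamma reach cells through separate receptors. Type I interferons act through a complex with STAT2 and IRF9 that binds the interferon-stimulated response element (ISRE), and interferon-gamma, made mainly by NK and T cells, acts through the gamma-activated site (GAS) and through IRF1, which it induces. Ifit, Oas, Mx1 and Rsad2 are classic type I targets, whereas the guanylate-binding proteins (Gbp), the immunity-related GTPases (Igtp, Irgm1, Irgm2, Iigp1), Cxcl9 and Nlrc5 answer most strongly to interferon-gamma. The division is one of degree, since most of these genes respond to both. MHC class I presents peptides that the immunoproteasome cuts, TAP carries into the endoplasmic reticulum and tapasin helps to load. Adipose tissue holds macrophages, T cells, NK cells and endothelium beside adipocytes, and each of these can answer interferon.

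The promoters of the members show which of these elements stand before the start sites. RefSeq windows on GRCm38.p6, each running from 250 bases before to 50 bases after a start site, were found for 34 of the 42 genes. The ISRE core, read as GAAA, any 2 bases and GAAA again and searched on both strands, was present in 17 of these 34 genes (50%), against 3.99% of all genes with a window. By role it was found in 7 of 8 interferon-gamma targets, 4 of 6 type I targets, 3 of 5 further interferon-stimulated genes, 1 of 3 class I chains and 0 of 5 peptide supply genes. The GAS motif TTCNNNGAA, which reads the same on both strands and overlaps an ISRE core match in Bst2, was present in 10 of 34 genes (29.4%), against 9.55% of all genes. A match is only a run of letters and shows no binding. The 150 bases before the start are printed for 10 genes, in lower case with ISRE core and GAS matches in capitals. Ifit1 and Rsad2 are type I targets, Gbp2, Gbp7, Igtp and Irgm2 are interferon-gamma targets that were highest in KO replicate 2, Irf1 and Trim25 are members that were higher in every KO library, and Tap1 and B2m belong to MHC class I.
Ifit1 (chr19:34640739-34640888, plus strand): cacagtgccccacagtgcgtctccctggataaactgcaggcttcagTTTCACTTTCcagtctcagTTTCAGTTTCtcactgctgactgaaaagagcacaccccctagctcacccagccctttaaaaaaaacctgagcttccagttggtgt
Rsad2 (chr12:26456453-26456602, minus strand): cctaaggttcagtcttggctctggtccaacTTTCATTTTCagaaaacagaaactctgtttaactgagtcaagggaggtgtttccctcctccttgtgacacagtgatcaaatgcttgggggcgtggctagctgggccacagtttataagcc
Gbp2 (chr3:142620513-142620662, plus strand): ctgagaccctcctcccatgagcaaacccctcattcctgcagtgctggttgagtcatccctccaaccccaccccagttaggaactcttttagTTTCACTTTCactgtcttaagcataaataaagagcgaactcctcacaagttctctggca
Gbp7 (chr3:142530186-142530335, plus strand): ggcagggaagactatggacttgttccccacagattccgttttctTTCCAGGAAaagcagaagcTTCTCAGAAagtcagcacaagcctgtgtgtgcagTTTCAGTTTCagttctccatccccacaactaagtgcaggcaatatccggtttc
Igtp (chr11:58199406-58199555, plus strand): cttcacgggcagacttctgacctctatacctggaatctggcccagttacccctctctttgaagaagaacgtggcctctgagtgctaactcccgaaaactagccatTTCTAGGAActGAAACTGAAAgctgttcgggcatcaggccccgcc
Irgm2 (chr11:58214827-58214976, plus strand): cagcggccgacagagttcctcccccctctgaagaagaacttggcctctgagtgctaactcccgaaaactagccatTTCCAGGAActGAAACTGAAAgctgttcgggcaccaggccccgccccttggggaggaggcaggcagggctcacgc
Irf1 (chr11:53769864-53770013, plus strand): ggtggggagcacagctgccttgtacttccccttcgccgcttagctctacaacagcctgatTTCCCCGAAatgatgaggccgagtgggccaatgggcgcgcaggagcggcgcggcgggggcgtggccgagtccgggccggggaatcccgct
Trim25 (chr11:88999253-88999402, plus strand): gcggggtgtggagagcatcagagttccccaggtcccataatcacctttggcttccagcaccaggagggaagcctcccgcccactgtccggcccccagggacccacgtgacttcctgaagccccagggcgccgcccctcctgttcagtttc
Tap1 (chr17:34187406-34187555, plus strand): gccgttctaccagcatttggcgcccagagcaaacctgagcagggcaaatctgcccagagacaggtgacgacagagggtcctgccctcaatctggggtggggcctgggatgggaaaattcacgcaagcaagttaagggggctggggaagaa
B2m (chr2:122147537-122147686, plus strand): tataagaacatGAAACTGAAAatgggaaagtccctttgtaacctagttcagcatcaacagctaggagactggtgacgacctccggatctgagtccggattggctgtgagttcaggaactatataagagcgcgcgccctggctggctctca
Ifit1 has 2 ISRE core matches in the printed stretch and Rsad2 has 1. Gbp7 carries 1 ISRE core match and 2 GAS matches, and the neighbouring genes Igtp and Irgm2 carry a GAS match just before an ISRE core match in nearly the same surrounding letters. Irf1 has a GAS match and no ISRE core match, B2m has the reverse, and neither motif is in the stretches of Trim25 and Tap1.

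The libraries held 33672272 to 43253559 counts in WT and 35734373 to 40927141 in KO. Levels are given in CPM, counts scaled to library size by TMM, and are compared between libraries for the same gene, never between genes. Fermt2 had 239, 234, 242 and 201 CPM in WT replicates 1 to 4 and 192, 132, 173 and 174 CPM in KO replicates 1 to 4. All 4 KO values lay below all 4 WT values, with a log2 fold change of -0.45 ± 0.14 (SE) that did not pass (edgeR quasi-likelihood test, Benjamini-Hochberg adjusted p = 0.134). The libraries are of whole tissue, and the brown adipocyte marker Ucp1 was present in all 8, at 5048 to 6575 CPM in WT and 1791 to 4300 CPM in KO. KO replicate 2 stands apart in the genes described here, so each comparison is given with and without it. WT replicate 3 carried 30484 CPM summed over 8 skeletal muscle markers, against 3.1 to 198 CPM in the other 7 libraries, and leaving it out together with KO replicate 2 was a further comparison.

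KO replicate 2 had the highest level of all 8 libraries in 41 of the 42 genes, against 18.2% of all 13901 genes tested; the exception was Trim25. The 42 genes together took 1.96% of the counts of KO replicate 2, 0.386% to 0.552% in KO replicates 1, 3 and 4, and 0.276% to 0.393% in WT. In 18 of the 42 genes KO replicate 2 lay at least 4-fold above the highest of the other 7 libraries, which held for 1.21% of all genes. Those 18 were 11 of the 12 interferon-gamma targets, Cxcl10 and Cd274, the peptide supply genes Psmb8, Psmb9 and Tap1, and the type I targets Ifit3 and Mx1. None of the 5 regulators and none of the 3 class I chains reached 4-fold.

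**Figure D1:**
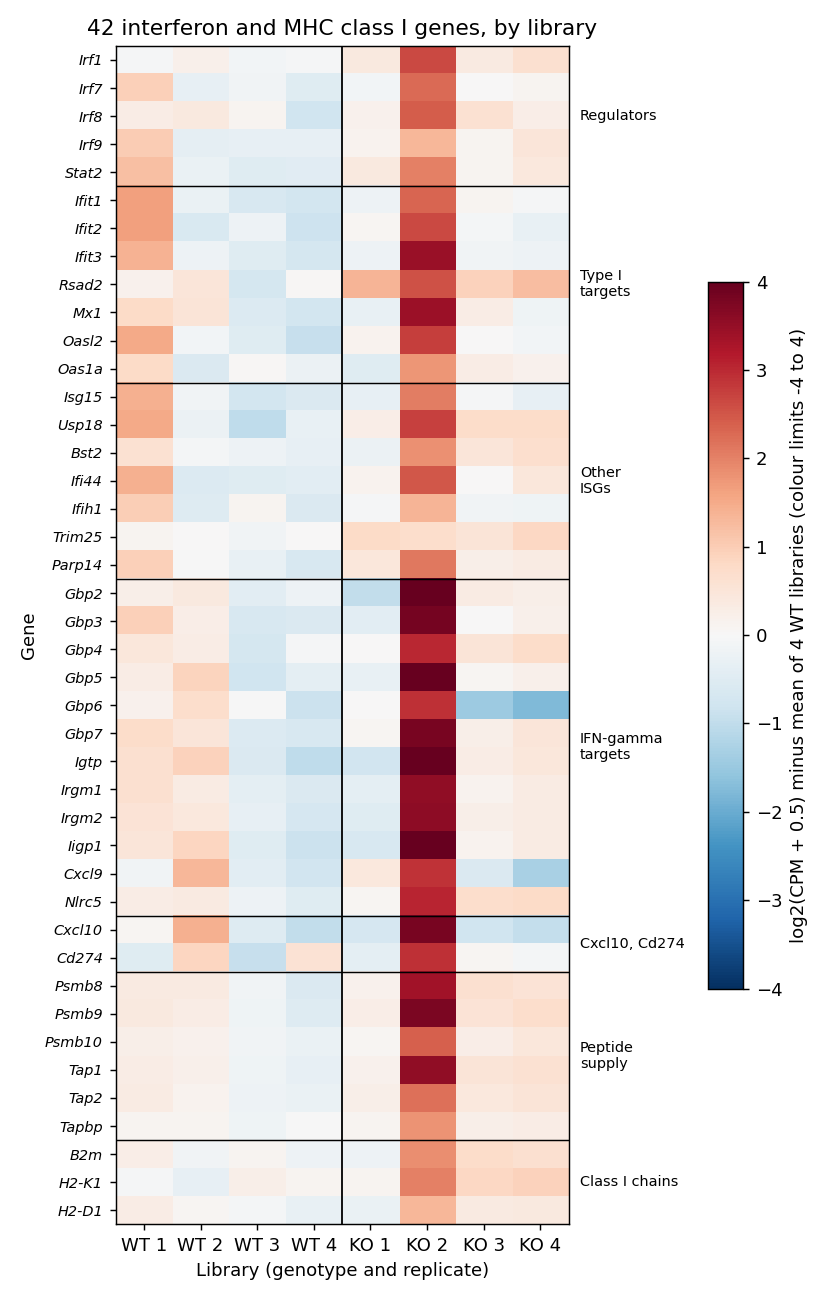
Heat map of the 42 genes (rows, grouped by role) in the 8 libraries (columns); colour is log2(CPM + 0.5) minus the mean of the 4 WT libraries, limited to the range -4 to 4. KO replicate 2 is the darkest red column in every gene but Trim25, and WT replicate 1 is red across most type I targets.

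Over all 8 libraries the fitted log2 fold change, KO minus WT, was above 0 in all 42 genes, against 50.5% of the genes tested, with a median of 1.17 against 0.00 for all genes. None of the 42 passed an adjusted p of 0.05, nor did any of the 13901 genes (percent called 0); 7 of the 42 and 21.5% of all genes had an unadjusted p under 0.05, and the smallest adjusted p among the 42 was 0.0874 for Trim25. DESeq2 called 1113 of the 17619 genes to which it gave a p-value (6.32%), among them Trim25, Rsad2 and H2-K1. It gave no adjusted p for 21 of the 42, so these could not be called. Limma-voom with sample quality weights called 911 (6.55%), among them the same 3. Without KO replicate 2, 21 of the 42 log2 fold changes lay above 0 and 21 below, against 48.3% above in all genes, and the median was 0.04. Of the 14027 genes in that fit 361 passed (2.57%), 238 of them with a higher level in KO (1.7%) and 123 with a lower one, and 1 of the 42 passed, Trim25. Leaving out 1 library thus took the median of the 42 from 1.17 to 0.04, as the plot of fold changes shows gene by gene.

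**Figure D2:**
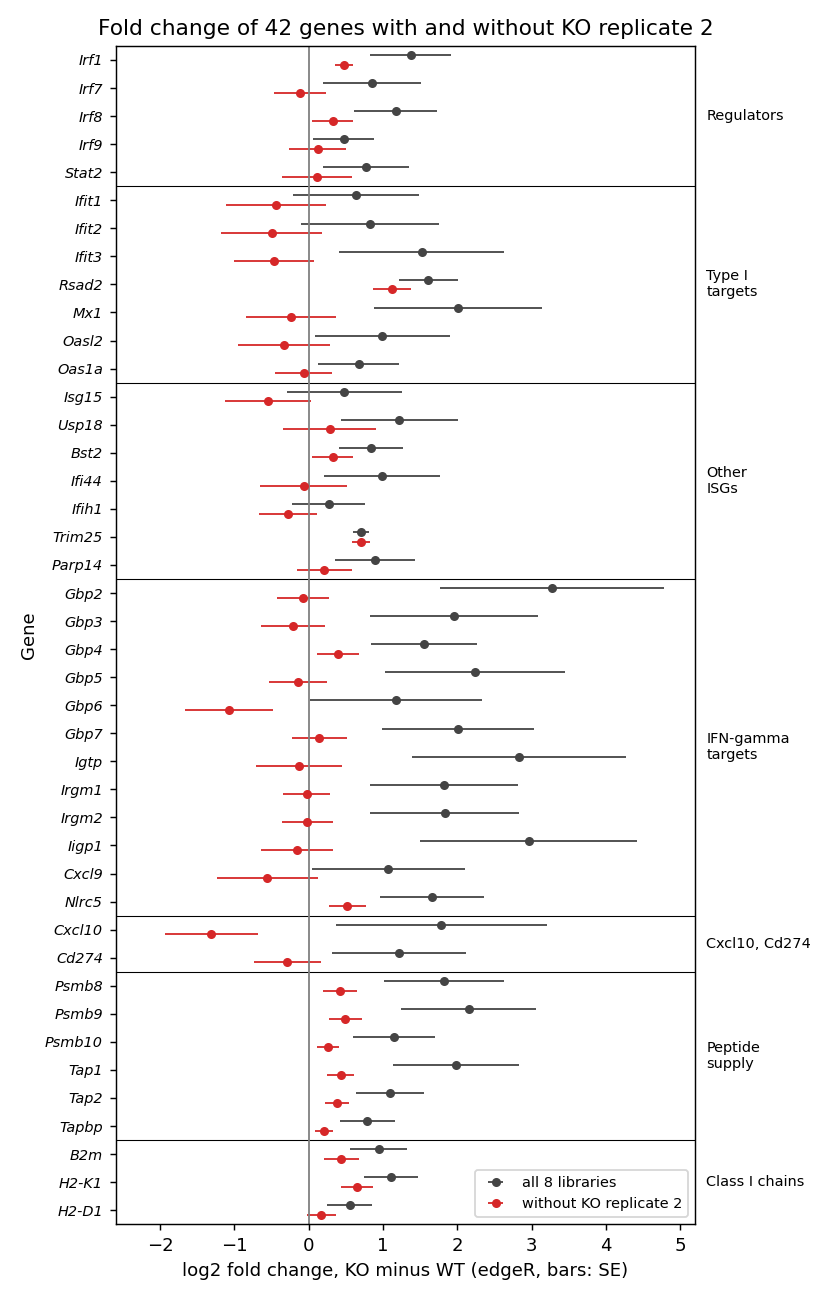
Points are log2 fold changes, KO minus WT, of the 42 genes from edgeR, with bars of 1 SE, over all 8 libraries (grey) and without KO replicate 2 (red). The grey points run from 0.27 to 3.27 and the red points from -1.31 to 1.12, and only Trim25 keeps the same place and a short bar.

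Some of these signs depend on the scaling. The TMM factors were 0.879 to 0.948 in WT and 1.05 to 1.15 in KO, and scaling by the total count alone moved the median of all genes to 0.26 over 8 libraries and to 0.24 without KO replicate 2. On that scale 882 genes were called over 8 libraries (6.34%), with Trim25 and Rsad2 among them. The fit without KO replicate 2 called 1756 genes (12.5%), 1692 higher and 64 lower. On the same scale it called 7 of the 42, namely Trim25, Rsad2, Irf1, Tap1, Tap2, Tapbp and H2-K1, all higher in KO, and 31 of the 42 log2 fold changes lay above 0, against 73.4% of all genes.

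Type I and interferon-gamma targets were compared by a level for each library, the mean over the genes of a role of log2(CPM + 0.5) minus the WT mean. KO replicate 2 stood 2.70 above the WT mean for the 7 type I targets, a 6.51-fold difference, and 3.81 above it for the 12 interferon-gamma targets, a 14.0-fold difference. KO replicates 1, 3 and 4 had levels of 0.06, 0.20 and 0.08 for type I targets and -0.28, 0.05 and 0.08 for interferon-gamma targets, all inside the WT range. The WT libraries were themselves unlike. WT replicates 1 to 4 had levels of 1.12, -0.11, -0.42 and -0.59 for type I targets, and of 0.45, 0.60, -0.46 and -0.59 for interferon-gamma targets. Thus WT replicate 1 stood highest among WT for type I targets and WT replicate 2 for interferon-gamma targets, while replicates 3 and 4 were low in both.

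**Figure D3:**
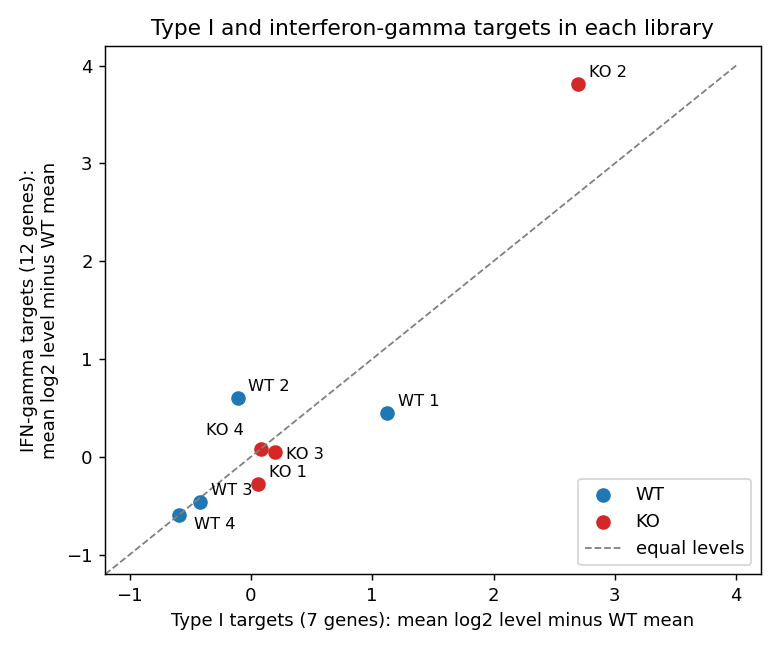
Each point is 1 library; the x axis is the level of the 7 type I targets and the y axis that of the 12 interferon-gamma targets, both as mean log2 level minus the WT mean, and the dashed line marks equal levels. KO replicate 2 lies at 2.70 and 3.81, above the line, WT replicate 1 lies at 1.12 and 0.45, below it, and WT replicate 2 at -0.11 and 0.60, above it.

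The median log2 fold change of the type I targets was 0.99 over all 8 libraries and -0.33 without KO replicate 2. That of the interferon-gamma targets was 1.89 and -0.11. With WT replicate 3 left out as well the medians were -0.53 and -0.26. Without WT replicate 1 and KO replicate 2 they were 0.46 and 0.11, so the sign of both medians in the remaining libraries turned with WT replicate 1. By total count alone and without KO replicate 2 they were -0.07 and 0.12, below the median of 0.24 for all genes on that scale.

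Among the regulators, Irf1, a factor that interferon-gamma induces, had 46.8, 55.2, 44.9 and 46.1 CPM in WT replicates 1 to 4 and 63.3, 300, 61.6 and 75.9 CPM in KO replicates 1 to 4. Every KO library lay above every WT library, and KO replicate 2 was far above the other 3. Its log2 fold change was 1.37 ± 0.54 over 8 libraries (edgeR adjusted p = 0.205) and 0.47 ± 0.12 without KO replicate 2 (edgeR adjusted p = 0.0758), and neither passed. Stat2 and Irf9, partners in the type I complex, followed another order. Stat2 had 98.5, 35.2, 30.1 and 30.4 CPM in WT and 55.8, 174, 45.3 and 56.5 CPM in KO. WT replicate 1 was thus above KO replicates 1, 3 and 4, which in turn were above WT replicates 2, 3 and 4. Irf9 had 70.2 CPM in WT replicate 1, 26.9 to 27.3 in the other WT libraries, and 37.7, 86.7, 37.4 and 48.3 CPM in KO, the same order. Irf7, which amplifies type I interferon production, had 53.4, 22, 24.9 and 19.3 CPM in WT and 25.4, 133, 27.8 and 29.6 CPM in KO. Irf8, a factor of monocytes and dendritic cells as well as of the interferon-gamma response, had 10.9, 11.7, 9.68 and 4.90 CPM in WT and 10.1, 49.2, 13.8 and 10.8 CPM in KO, and without KO replicate 2 the groups overlapped. The median log2 fold change of the 5 regulators was 0.85, and 0.12 without KO replicate 2.

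Of the type I targets, Rsad2 (viperin, an enzyme that makes an antiviral nucleotide) had 33.9, 42.3, 18.3 and 30.7 CPM in WT and 77.1, 178, 56.7 and 71.1 CPM in KO. All KO libraries lay above all WT libraries, with or without KO replicate 2. The log2 fold change was 1.61 ± 0.40 over 8 libraries (edgeR adjusted p = 0.112) and 1.12 ± 0.25 without KO replicate 2 (edgeR adjusted p = 0.0562). It passed with WT replicate 3 left out too (0.94 ± 0.16, edgeR adjusted p = 0.0316), where 3.32% of 13901 genes were called, and by DESeq2 over 8 libraries (adjusted p = 0.000758). Rsad2 did not have the WT replicate 1 peak of its class, its highest WT library being replicate 2. Cmpk2, its neighbour and a mitochondrial nucleotide kinase that interferon also induces, had 20.5, 20.2, 9.61 and 14.4 CPM in WT and 27.1, 60.6, 22.9 and 30.3 CPM in KO, again with all KO above all WT (log2 fold change 0.72 ± 0.25 without KO replicate 2, edgeR adjusted p = 0.134).

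The other type I targets behaved differently. Ifit1, Ifit2 and Ifit3 encode proteins that bind RNA of foreign type and curb its translation. Ifit3 had 27.5, 8.86, 7.22 and 6.10 CPM in WT and 8.87, 116, 9.33 and 8.75 CPM in KO, so that KO replicates 1, 3 and 4 lay close to each other and to WT replicate 2. Ifit2 had 26.7, 5.14, 7.12 and 4.37 CPM in WT and 8.68, 53.5, 7.78 and 6.50 CPM in KO. WT replicate 1 held 5.2 times the median of the other WT libraries for Ifit2 and for Ifit1, and 4.16 times for the Oas-family gene Oasl2. Mx1, a GTPase that blocks influenza viruses, had 2.04, 1.66, 0.532 and 0.402 CPM in WT and 0.737, 15.7, 1.36 and 0.838 CPM in KO. Oas1a, which makes the signal that activates RNase L, had 5.70, 1.97, 3.29 and 2.64 CPM in WT and 2.14, 11.9, 3.98 and 3.60 CPM in KO. For both, KO replicates 1, 3 and 4 were within the WT range. Without KO replicate 2, 6 of the 7 type I targets had log2 fold changes below 0, from -0.07 to -0.50, and none passed.

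Across all roles, WT replicate 1 was at least 2-fold above every other WT library in 10 of the 42 genes, against 1.16% of all genes. They were Irf7, Irf9, Stat2, Ifit1, Ifit2, Ifit3, Oasl2, Isg15, Usp18 and Ifi44. None of the 12 interferon-gamma targets was among them. WT replicate 1 exceeded KO replicates 1, 3 and 4 in 23 of the 42 genes, against 31.6% of all genes. The 23 included 8 of the 12 interferon-gamma targets and none of the peptide supply genes or class I chains. WT replicate 2 was the highest WT library in 7 of the 12 interferon-gamma targets and in Cxcl10 and Cd274, against 25.1% of all genes. In the other 5 interferon-gamma targets (Gbp3, Gbp4, Gbp7, Irgm1 and Irgm2) WT replicate 1 was the highest WT library. The same held in 5 of the 6 peptide supply genes, against 23.9% of all genes.

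Among the further interferon-stimulated genes, Trim25 stood alone. It encodes a ubiquitin ligase that acts on the RNA sensor RIG-I. It had 101, 93.8, 84.5 and 93.3 CPM in WT (93.2 ± 6.82, SD, n = 4) and 157, 153, 132 and 164 CPM in KO (151 ± 13.7, SD, n = 4). The groups were apart by more than their spread, and KO replicate 2 was in the middle of its group. Trim25 rose by 0.70 ± 0.12 on the log2 scale without KO replicate 2 (edgeR adjusted p = 0.0335), and by 0.65 ± 0.12 with WT replicate 3 left out too (edgeR adjusted p = 0.0347). Over all 8 libraries its log2 fold change was 0.70 ± 0.11 (edgeR adjusted p = 0.0874; DESeq2 adjusted p = 1.19e-05). Without WT replicate 1 and KO replicate 2 it was 0.74, with edgeR adjusted p = 0.0634, in a fit that called 2 of 13917 genes (0.0144%).

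The rest of that role followed the 2 outlying libraries. Isg15, a ubiquitin-like modifier, had 21.5, 6.95, 4.42 and 4.92 CPM in WT and 5.94, 33.4, 7.40 and 5.99 CPM in KO. Usp18, which removes ISG15 and damps the type I receptor, had 12.3, 3.32, 1.73 and 3.16 CPM in WT and 4.91, 29.1, 6.89 and 6.87 CPM in KO. For Usp18, but not for Isg15, KO replicates 1, 3 and 4 were above WT replicates 2, 3 and 4. Bst2 (tetherin, which holds budding viruses at the cell surface) had 92.4, 57.2, 51.8 and 48.4 CPM in WT and 51.3, 216, 85.1 and 97.0 CPM in KO. Parp14, an ADP-ribosyltransferase, had 67.7, 34.3, 27.7 and 21.9 CPM in WT and 47.5, 149, 40.6 and 43.5 CPM in KO. Again WT replicate 1 exceeded KO replicates 1, 3 and 4, which exceeded the other WT libraries. Ifih1, an RNA sensor, and Ifi44 had log2 fold changes of 0.27 and 0.99 over 8 libraries and of -0.28 and -0.07 without KO replicate 2. KO replicates 1, 3 and 4 lay above WT replicates 2, 3 and 4 in 12 of the 42 genes (16.0% of all genes), among them 4 of 5 regulators and 0 of 12 interferon-gamma targets.

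In the 12 interferon-gamma targets KO replicate 2 held 3.01 to 27.8 times the level of the highest other library. The median ratio, 7.89, was the highest of any role. Single genes of other roles reached up to 8.46 (peptide supply) and 7.72 (type I targets). Gbp2, a GTPase of defence against pathogens inside cells, had 48.7, 54.2, 30.3 and 35.2 CPM in WT and 20.3, 1505, 51.3 and 47.8 CPM in KO. KO replicate 1 was thus the lowest of all 8 libraries and KO replicate 2 the highest. Its log2 fold change was 3.27 ± 1.51 over 8 libraries (edgeR adjusted p = 0.26) and -0.08 ± 0.35 without KO replicate 2 (edgeR adjusted p = 0.912). Iigp1, an immunity-related GTPase, had 56.6, 73.4, 28.6 and 21.9 CPM in WT and 25.6, 1283, 44.7 and 50.8 CPM in KO, and its relative Igtp showed the same order of WT libraries, 56.3, 68.2, 23.9 and 17.3 CPM. Gbp4 had 53.4, 48.0, 23.5 and 37.7 CPM in WT and 39.6, 316, 56.3 and 64.5 CPM in KO. Nlrc5, the activator of MHC class I gene transcription, had 18.2, 18.8, 12.7 and 10.4 CPM in WT and 15.4, 125, 24 and 25.4 CPM in KO, with KO replicates 3 and 4 above and KO replicate 1 inside the WT range. Its log2 fold change without KO replicate 2 was 0.52 ± 0.25 (edgeR adjusted p = 0.25), the highest of the 12.

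Gbp6 ran the other way in 2 KO libraries. It had 6.21, 9.11, 5.36 and 2.76 CPM in WT and 5.44, 44.2, 1.66 and 1.26 CPM in KO, so that KO replicates 3 and 4 were below every WT library (log2 fold change -1.07 ± 0.59 without KO replicate 2, edgeR adjusted p = 0.317). Gbp6 and Gbp10 are close relatives, as are Gbp2 and Gbp2b, Ifit3 and Ifit3b, Oas1a and Oas1g, and H2-K1 and H2-D1, and the counting step, whose method the labels do not give, could split or drop their shared reads. Cxcl9, a chemokine that draws T and NK cells through CXCR3, had 27.2, 76.2, 22.7 and 17.8 CPM in WT and 40.7, 230, 20.1 and 12.1 CPM in KO. Cxcl10, a ligand of the same receptor, had 3.48, 9.46, 2.13 and 1.38 CPM in WT and 1.87, 51.3, 1.66 and 1.43 CPM in KO. Cd274, which encodes the T cell inhibitor PD-L1, had 24.1, 61.8, 17.9 and 50.9 CPM in WT and 26.2, 264, 36.4 and 32.2 CPM in KO. In these 3 genes WT replicate 2 held the highest WT level and KO replicates 1, 3 and 4 lay below it. Cxcl10 overlaps Art3 and Cd274 overlaps Plgrkt in the annotation, and the use of strand in counting is not stated.

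The peptide supply genes were all highest in KO replicate 2. Their mean level lay above all WT libraries in KO replicates 3 and 4 as well, and inside the WT range in KO replicate 1. Their levels minus the WT mean were 0.17, 2.85, 0.43 and 0.52 in KO replicates 1 to 4, against -0.33 to 0.28 in WT. Psmb8 and Psmb9 are catalytic subunits of the immunoproteasome. Psmb9 had 23.6, 22.1, 16.0 and 12.5 CPM in WT and 21.7, 253, 26.7 and 29.9 CPM in KO. Psmb8 had 34.7, 35.1, 24.5 and 18.2 CPM in WT and 30.7, 286, 42.5 and 39.8 CPM in KO. In both, KO replicates 3 and 4 were above all WT libraries and KO replicate 1 was not. Tap1 and Tap2 form the peptide transporter. Tap1 had 43.6, 40.2, 31.5 and 27.8 CPM in WT and 39.6, 421, 50.8 and 54.3 CPM in KO (log2 fold change 0.43 ± 0.18 without KO replicate 2, edgeR adjusted p = 0.193). Tap2 had 50.6, 44.6, 35.5 and 33.6 CPM in WT and 48.1, 190, 53.9 and 58.2 CPM in KO (0.38 ± 0.16, edgeR adjusted p = 0.197). Tapbp (tapasin) had 162, 161, 132 and 147 CPM in WT and 163, 519, 175 and 184 CPM in KO, with KO replicate 1 above the highest WT library by a margin smaller than the WT spread. All 6 log2 fold changes were above 0 without KO replicate 2, from 0.21 to 0.49, and none passed.

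The class I chains were higher in KO replicates 3 and 4 than in WT, with levels of 0.64 and 0.65, and not in KO replicate 1, at -0.12. H2-K1, a classical heavy chain, had 589, 480, 717 and 659 CPM in WT and 649, 2425, 1083 and 1142 CPM in KO. Its log2 fold change was 1.11 ± 0.36 over 8 libraries (edgeR adjusted p = 0.154; DESeq2 adjusted p = 0.0193) and 0.65 ± 0.22 without KO replicate 2 (edgeR adjusted p = 0.123). B2m, the light chain shared by all class I molecules, had 834, 633, 744 and 599 CPM in WT and 608, 2536, 1163 and 1094 CPM in KO. H2-D1 had 1255, 1077, 957 and 823 CPM in WT and 853, 2534, 1297 and 1328 CPM in KO. In all 3 chains KO replicate 1 lay within the WT range while the other KO libraries exceeded it. B2m overlaps Patl2 in the annotation, as Stat2 does Apof and Ifit1 does Ifit1bl1.

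**Figure D4:**
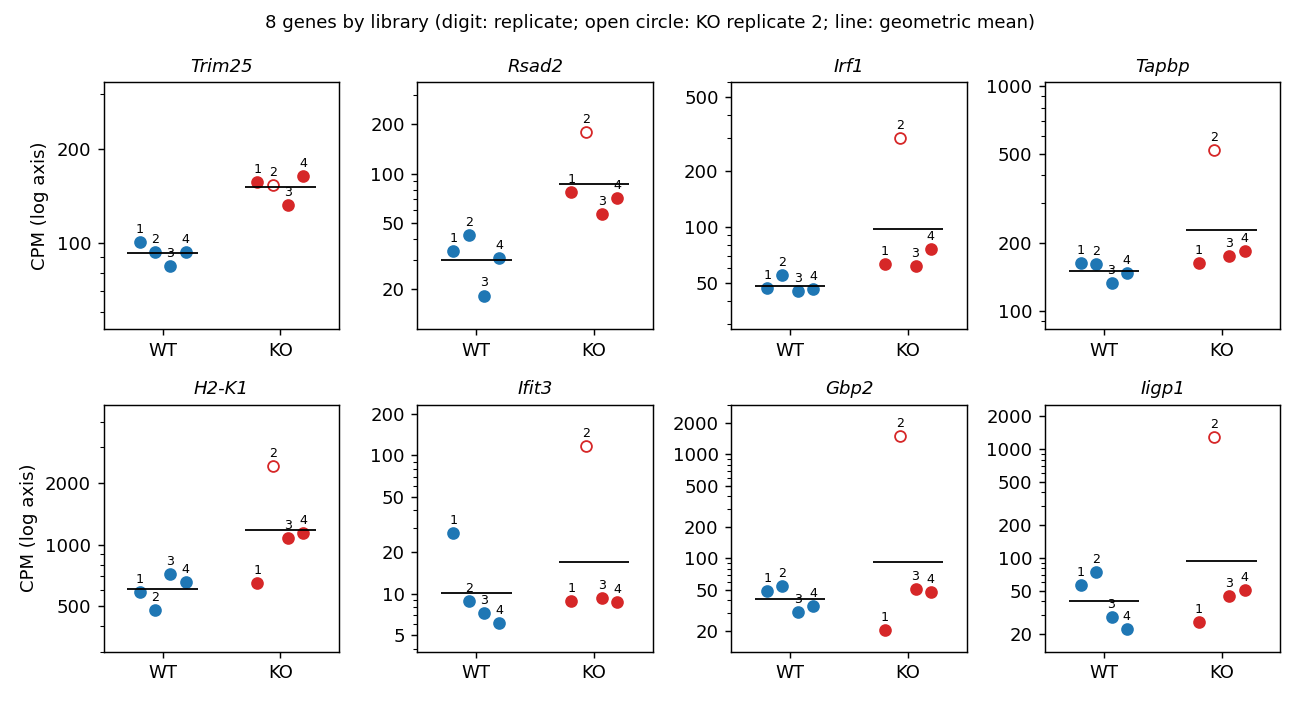
Levels of 8 genes by library on log axes of CPM; blue points are WT and red points KO, digits give the replicate, the open circle is KO replicate 2 and lines are geometric means of 4 libraries. In the upper row (Trim25, Rsad2, Irf1, Tapbp) every KO library lies above every WT library; in the lower row (H2-K1, Ifit3, Gbp2, Iigp1) the KO mean is set by KO replicate 2 or the groups overlap.

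Every KO library was above every WT library in 4 of the 42 genes, Irf1, Rsad2, Trim25 and Tapbp, which is 9.52% against 5.82% of all genes. The same 4 did so when KO replicate 2 was set aside, against 12.1% of all genes. Both shares are near the background. In KO replicates 1, 3 and 4 together, none of the 42 was below all WT libraries, against 11.2% of all genes.

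Other genes of the pathway, from lists of ligands, receptors, inhibitors, sensors and further targets, gave the same division. No gene on these lists passed in edgeR over all 8 libraries. That fit tested 3 ligand, 11 receptor and kinase, 5 inhibitor and 16 sensor genes. It also tested 28 further type I targets, 24 further interferon-gamma targets and 13 further class I genes. DESeq2 over all 8 libraries called Tlr3, Cmpk2, Slfn5, H2-Q4 and H2-M3, all higher in KO, against 6.32% of all genes. Limma-voom with sample quality weights called the same genes except Cmpk2, against 6.55% of all genes. By total library size Tlr3, Tbk1, Slfn5, H2-Q4 and H2-M3 passed, against 6.34% of all genes. Of 11 receptor and kinase genes 9 had log2 fold changes above 0 (median 0.13), and without KO replicate 2 6 did (median 0.03). Ifnar1 and Ifngr1, chains of the type I and gamma receptors, had log2 fold changes of 0.16 ± 0.15 and 0.13 ± 0.16 (edgeR adjusted p = 0.528 and 0.657). All 5 inhibitor genes, with Usp18 among them, had log2 fold changes above 0 (median 0.34), and without KO replicate 2 3 did (median 0.09). Socs1, which blocks the receptor kinases, reached 16.6 CPM in KO replicate 2 against 0.968 to 2.07 CPM in the other 7 libraries, and without KO replicate 2 its log2 fold change was -0.20 ± 0.39. Of 16 sensor genes tested 15 were above 0 (median 0.36), and without KO replicate 2 10 were (median 0.09). Tlr3, a receptor for double-stranded RNA, had 7.86, 5.95, 6.22 and 6.10 CPM in WT and 9.47, 12.2, 11.4 and 9.29 CPM in KO, all KO above all WT (log2 fold change 0.62 ± 0.17 without KO replicate 2, edgeR adjusted p = 0.0872).

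Further type I targets had a median of 0.70 over all libraries and 0.16 without KO replicate 2. In the latter fit 1 of 28 passed, against 2.57% of all genes. It was Slfn5, which rose by 0.90 ± 0.14 on the log2 scale (edgeR adjusted p = 0.0322), with 190, 193, 151 and 198 CPM in WT and 312, 214, 316 and 397 CPM in KO. Like Trim25 it did not peak in KO replicate 2. Further interferon-gamma targets had medians of 1.66 and 0.06, and 0 of 24 passed, against the same 2.57%. Further class I genes had medians of 0.66 and 0.25, and 1 of 13 passed without KO replicate 2, again against 2.57%. It was H2-T23, a non-classical class I gene that engages NK cell receptors, which rose by 0.82 ± 0.13 (edgeR adjusted p = 0.0322), with 62.3, 49.6, 67.5 and 65.5 CPM in WT and 112, 653, 104 and 109 CPM in KO. H2-M3 and H2-Q4, also class I genes, had log2 fold changes of 0.71 ± 0.19 and 0.75 ± 0.18 there (edgeR adjusted p = 0.0764 and 0.0632). Ifng itself had 120 counts in KO replicate 2 (2.68 CPM), 16 in WT replicate 2 and 0 to 9 in the other 6 libraries, and did not pass the filter. Of the 14 ligand genes listed, 6 were in the table, namely Ifng, Il12a, Il12b, Il15, Il18 and Il27. No row carried the symbol of a type I or type III interferon gene of the list, so these could not be analysed.

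Markers of other cell types were summed for each library, and in bulk tissue more cells of a type and more RNA per cell cannot be told apart. In KO replicate 2 the T cell list of 13 genes summed to 180 CPM, against 8.69 to 38.4 in WT and 25.6 to 48.8 in the other KO libraries. The NK and cytotoxic list of 11 genes summed to 237 CPM, against 4.70 to 41.4 and 29.5 to 50.7. All 13 and all 11 genes were highest in KO replicate 2, among them Cd3e (7.99 CPM against at most 4.09 elsewhere), Ncr1 (6.12 against at most 1.31) and Gzmb (40.4 against at most 7.33). Gzmb was also highest among WT in replicate 2, at 7.33 CPM. Monocyte markers summed to 76.7 CPM in KO replicate 2 (6.10 to 16.9 in WT, 10.2 to 18.5 in the other KO libraries), macrophage markers to 674 (222 to 324 and 264 to 380) and cell cycle genes to 109 (6.28 to 15.8 and 14.8 to 18.1). B cell markers summed to 24.5 CPM (3.09 to 12.1 and 10.2 to 15.2), but only 2 of the 6 genes were highest in KO replicate 2. Plasmacytoid dendritic cell and neutrophil sums were not raised there, at 112 CPM (106 to 500 in WT) and 7.90 CPM (3.10 to 8.13 in WT). Of the 6 plasmacytoid genes 2 passed the filter and 2 were highest in KO replicate 2. The WT maximum of 500 CPM was WT replicate 3, against 106 to 123 CPM in the other WT libraries. The plasmacytoid sum is therefore a weak measure of these cells.

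Endothelial markers were higher in KO replicates 1, 3 and 4, where they summed to 2027 to 2675 CPM, than in KO replicate 2 with 1490 and WT with 1209 to 1676. Conventional dendritic cell markers summed to 112 to 139 CPM in KO replicates 1, 3 and 4, 90.7 in KO replicate 2 and 53.8 to 74.4 in WT. Most of that sum was Zbtb46, a transcription factor, with 96 to 124 CPM in KO replicates 1, 3 and 4, 51.4 in KO replicate 2 and 46.1 to 64 in WT. The other 6 of the 7 dendritic markers were each highest in KO replicate 2, among them Itgax with 15.8 CPM there against 0.678 to 4.33 CPM in the other 7 libraries, and Xcr1 with 3.28 against 0 to 0.501 CPM. Brown adipocyte markers were lowest in KO replicate 2, with a sum of 16682 CPM, and the 19619 to 25891 CPM of KO replicates 1, 3 and 4 overlapped the 24631 to 29298 CPM of WT. WT replicate 1, high in type I targets, had T cell, NK, monocyte and macrophage sums of 19.2, 17.1, 13 and 324 CPM, of which only the macrophage sum was the highest in WT. The part of any of these cell types in the levels of the 42 genes was not tested.

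**Figure D5:**
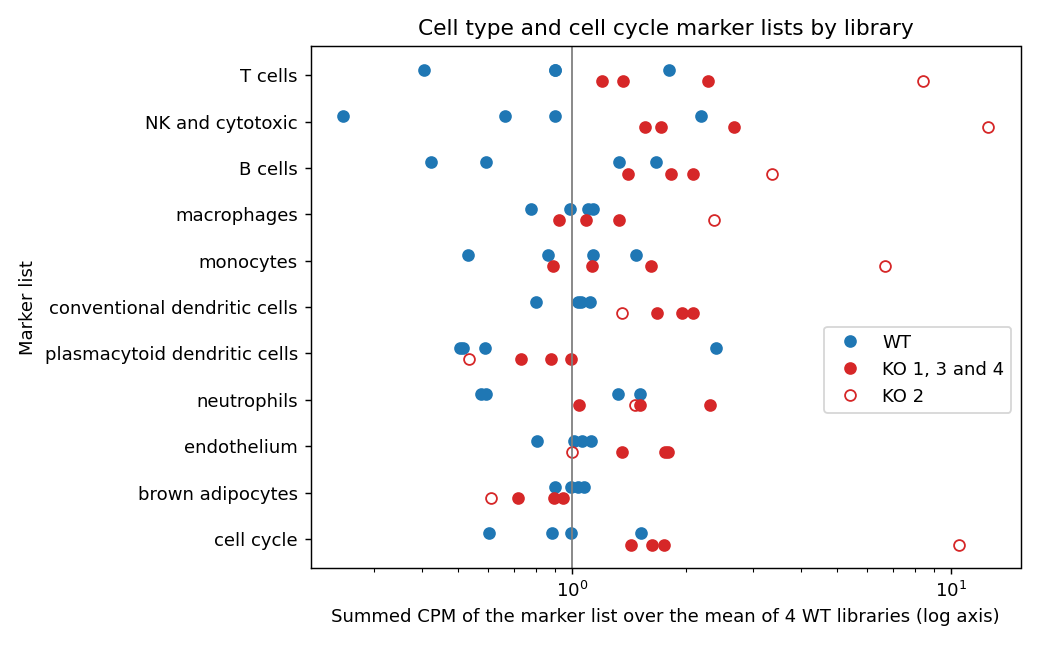
Summed CPM of each marker list in each library, divided by the mean of the 4 WT libraries, on a log axis; blue points are WT, filled red points KO replicates 1, 3 and 4, open circles KO replicate 2. KO replicate 2 is far to the right for T cell (180 CPM), NK (237 CPM), monocyte (76.7 CPM) and cell cycle lists (109 CPM) and within the WT range for endothelium (1490 CPM).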

How the data were processed

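Poly(A) RNA from mouse adipose tissue was sequenced in 8 libraries, 4 WT and 4 KO. The authors deposited 1 table of raw read counts for 18395 genes, and the submitters' processing notes name the GRCm39 build, while the sources used here name no aligner or counter. Symbols came from GENCODE M21 on GRCm38, with 74 identifiers unmatched, and promoter windows from RefSeq on GRCm38.p6; no coordinates were carried between builds. The count of each gene was tested with edgeR 4.0.16 (R 4.3.3): TMM scaling, filterByExpr by group, robust quasi-likelihood F test, Benjamini-Hochberg adjustment over all genes tested, threshold 0.05. The SE is the absolute log2 fold change divided by the square root of F. The pipeline was tested on simulated data with 200 changed genes. Genes were drawn independently there, so no simulated library deviated over many genes together as KO replicate 2 does. DESeq2 1.42.0 and limma 3.58.1 (voom, with and without sample quality weights), other scalings and filters, a replicate block and leaving out libraries were alternatives. Levels by role used log2(CPM + 0.5).

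The 42 members, the gene lists and the promoter motifs were chosen with earlier results of these data known, so no p-value was computed for a list and none was adjusted over a list alone. Per-library values are given for the up to 4 genes of each role with the smallest unadjusted p over 8 libraries. They are also given for the up to 3 such genes without KO replicate 2, and for any gene called. A few others were chosen after their values were seen (Irf9, Igtp, Cxcl9, Tapbp, Ifnar1, Ifngr1, Gzmb, Cd3e, Ncr1, Gbp2b, Gbp10, Gbp11, Zbtb46, Itgax, Xcr1). Leaving out WT replicate 1 with KO replicate 2, and other scalings without KO replicate 2, were likewise chosen after seeing the data. Depth was 33672272 to 43253559 counts per library; reads carry no molecular identifiers in the labels, so counting error is a lower limit on the error.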

Additional observations from a re-analysis of the deposited data

Results flagged for a closer look

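In each group of 4 libraries, the gap between the outermost library and its nearest neighbour was divided by the range of the group and compared with Dixon's critical value for 4 libraries. Of 84 groups, the 42 genes in each of 2 genotypes, 45 exceeded it. Chance alone gives about 1 in 20, but the genes share the same 8 libraries and were chosen with results known, so the groups are not independent. Over all 13901 genes tested, 9.04% exceeded it in KO and 9.05% in WT. KO replicate 2 was the highest and exceeded it in 35 of the 42 genes (83.3%) and in 4.88% of all genes, and WT replicate 1 in 9 of the 42 (21.4%) and in 1.17% of all genes. WT replicate 2 was the highest and exceeded it in 1 of the 42.

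KO replicate 2 gave gap ratios of 0.940 for Irf1, 0.960 for Irf7, 0.906 for Irf8 and 0.913 for Stat2 among the regulators. Among the type I targets they were 0.950 for Ifit1, 0.954 for Ifit2, 0.995 for Ifit3, 0.831 for Rsad2, 0.958 for Mx1 and 0.971 for Oasl2, and among the further interferon-stimulated genes 0.947 for Isg15, 0.918 for Usp18, 0.923 for Ifi44, 0.958 for Ifih1 and 0.936 for Parp14. Interferon-gamma targets gave 0.979 for Gbp2, 0.970 for Gbp3, 0.910 for Gbp4, 0.980 for Gbp5, 0.903 for Gbp6, 0.973 for Gbp7, 0.973 for Igtp, 0.956 for Irgm1, 0.951 for Irgm2, 0.980 for Iigp1, 0.869 for Cxcl9 and 0.909 for Nlrc5, and the T cell ligands 0.991 for Cxcl10 and 0.957 for Cd274. Peptide supply genes gave 0.954 for Psmb8, 0.964 for Psmb9, 0.925 for Psmb10, 0.962 for Tap1, 0.928 for Tap2 and 0.939 for Tapbp. No MHC class I chain exceeded the critical value in either genotype.

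WT replicate 1 gave 0.834 for Irf7, 0.989 for Irf9, 0.925 for Stat2, 0.909 for Ifit1, 0.877 for Ifit2, 0.871 for Ifit3, 0.851 for Isg15, 0.849 for Usp18 and 0.971 for Ifi44, all 9 of them regulators, type I targets or further interferon-stimulated genes. WT replicate 2 gave 0.839 for Cxcl9, an interferon-gamma target.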

How the results depend on the processing

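Among the 8-library alternatives, genes called numbered 882 by total library size (2 of the 42), 1113 by the DESeq2 Wald test (3 of the 42), 911 by limma-voom with sample quality weights (3 of the 42) and 1 without the filter, against 0 in the reported fit; the cause was not tested. Leaving out each library in turn gave 0 to 361 genes called and 0 to 1 of the 42; the 361 came without KO replicate 2, with 1 gene without WT replicate 1 and 3 without WT replicate 4. With KO replicate 2 left out, genes called numbered 1756 by total library size (7 of the 42), 342 by DESeq2 size factors (1 of the 42), 461 with WT replicate 3 also left out (2 of the 42) and 2 with WT replicate 1 also left out (0 of the 42).

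The medians of the 7 roles ranged as follows when each library was left out, the lowest always without KO replicate 2: regulators 0.12 to 1.29, type I targets -0.33 to 1.78, further interferon-stimulated genes 0.21 to 1.28, interferon-gamma targets -0.11 to 2.23, Cxcl10 and Cd274 -0.80 to 2.06, peptide supply 0.40 to 1.75 and class I chains 0.44 to 1.18. Without WT replicate 1 the medians of regulators, type I targets and further interferon-stimulated genes were at those upper ends. Leaving out KO replicate 2 and using DESeq2 size factors gave medians of 0.11, -0.34, -0.11, -0.81 and 0.39 for regulators, type I targets, interferon-gamma targets, Cxcl10 and Cd274, and peptide supply. By total library size without KO replicate 2 the medians were -0.07 for type I targets, 0.12 for interferon-gamma targets and -0.57 for Cxcl10 and Cd274. With WT replicate 3 also left out they were -0.01, -0.53, -0.00, -0.26, -1.03 and 0.34 for regulators, type I, further interferon-stimulated, interferon-gamma, Cxcl10 and Cd274, and peptide supply. With WT replicate 1 also left out they were 0.11 for interferon-gamma targets, -0.93 for Cxcl10 and Cd274 and 0.51 for peptide supply. Sample quality weights gave 0.42 for interferon-gamma targets and -0.36 for Cxcl10 and Cd274.

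Single genes changed sign as follows, on the log2 scale. Without KO replicate 2: Irf7 -0.12, Ifit2 -0.50, Ifit3 -0.47, Mx1 -0.24, Oas1a -0.07, Isg15 -0.55, Gbp2 -0.08, Gbp6 -1.07, Iigp1 -0.16, Cxcl10 -1.31, Cd274 -0.29, while the highest values with 1 library left out were Cd274 1.53, Cxcl10 2.59, Gbp2 3.66, Gbp6 1.54, Ifit2 1.78, Ifit3 2.27, Iigp1 3.34, Irf7 1.29, Isg15 1.28, Mx1 2.43 and Oas1a 1.04. With DESeq2 size factors as well: Irf7 -0.12, Ifit2 -0.51, Ifit3 -0.48, Mx1 -0.25, Oas1a -0.08, Isg15 -0.56, Gbp2 -0.09, Gbp6 -1.08, Iigp1 -0.17, Cxcl10 -1.32, Cd274 -0.30. With total library size as well: Ifit2 -0.23, Ifit3 -0.21, Mx1 -0.01, Isg15 -0.30, Gbp6 -0.78, Cxcl10 -1.07, Cd274 -0.06. With WT replicate 3 also left out: Irf7 -0.19, Stat2 -0.06, Ifit2 -0.65, Ifit3 -0.65, Mx1 -0.48, Oas1a -0.09, Isg15 -0.78, Usp18 -0.00, Gbp2 -0.21, Gbp6 -1.11, Iigp1 -0.33, Cxcl10 -1.52, Cd274 -0.53. With WT replicate 1 also left out: Gbp2 -0.01, Gbp6 -1.04, Iigp1 -0.04, Cxcl10 -1.39, Cd274 -0.46. With sample quality weights over 8 libraries: Isg15 -0.01, Gbp6 -1.24, Cxcl10 -0.62, Cd274 -0.10. Outside the 28, Cxcl9 also changed sign with these weights, at -0.58. Of the 28, Gbp6 alone reversed under limma-voom, at -0.06.

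The labels do not say whether the replicate numbers pair the libraries. Same-numbered libraries correlated at -0.036, 0.019, -0.12 and 0.247 in their deviations from the group means. Differently numbered ones correlated at -0.309 to 0.225, and these values do not settle whether the libraries were paired. With a replicate block no gene was called and Gbp6 reversed, at -0.22. Levels by total library size were 0.22, 1.99, 0.84 and 0.90 for class I chains in KO replicates 1 to 4 and 0.51 for peptide supply in KO replicate 1. A longer ISRE, the core followed by CT, was found in 10 of 34 genes, against 0.303% of all genes. DESeq2 size factors, the stricter filter and limma-voom called 0 genes, as did the reported fit. Ifng, with at most 16 counts outside KO replicate 2, was too shallow to be tested.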

Other observations

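Gbp2b, a relative of Gbp2, was listed at 0 counts in WT replicates 3 and 4 and had 79.0 CPM in WT replicate 2, 19.7 CPM in WT replicate 1, and 24.1, 13.1, 19.4 and 20.4 CPM in KO replicates 1 to 4. The other 23 of the 24 further interferon-gamma targets were highest in KO replicate 2. Gbp10 and Gbp11 had 202 and 683 CPM in KO replicate 2, against at most 4.99 and 16.9 CPM in the other 7 libraries, ratios of 40.6 and 40.4.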
